A study of Mus musculus with 12 samples.

Results

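The 45 genes described here encode proteins that copy DNA and divide cells. They were chosen as a list of named cell cycle and DNA replication genes and were taken by symbol from the gene table of 12 mouse kidneys, where 44 of them were found among 22053 entries. By textbook function 18 of the 45 act mainly in G1 and S phase and 27 mainly in G2 phase and mitosis, and these are called G1/S and G2/M members below. Gins2, a subunit of the replicative helicase, was not analysed here. Of the 44 matched members, 43 reached 1 FPKM (sequenced fragments scaled to the length of the transcript and the size of the library) in at least 4 of the 12 mice, 17 of them G1/S and 26 G2/M members. The member just inside this limit was Ccne2, with 4 such mice, and the one outside it was Ttk, with 1.

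RNA came from the whole kidneys of wild-type C57BL/6 mice, 4 in each of 3 groups. Control mice ate a diet without adenine and were injected weekly with PBS. CKD mice ate 0.2% adenine from 8 to 16 weeks of age, which damages the tubules and brings on chronic kidney disease (CKD), and had the same PBS injections. CKD+Fe mice ate the adenine diet and were given iron dextran i.p. every week at 0.5 g/kg. Each mouse gave 1 library and is named here by the number in its label.

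A cell that enters the cycle first makes D-type and E-type cyclins, which with their kinases release the E2F transcription factors. E2F factors switch on the genes for licensing and copying DNA, and a later wave of genes, driven by FoxM1 and B-Myb complexes, builds the mitotic kinases, the spindle and the kinetochore. The adult kidney is a slowly renewing organ in which few cells divide, but surviving tubule cells, macrophages and fibroblasts can all re-enter the cycle after injury. In RNA from whole tissue, more cells of a type and more RNA per cell cannot be told apart.

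The G1/S and G2/M members differed in the letters of their promoters, a feature that did not enter their choice. Promoter sequences of 300 bases, 250 before and 50 after the transcription start, were available from RefSeq (GRCm38.p6) for 36 members, 14 G1/S and 22 G2/M. E2F letters (TTTCCCGC, TTTGGCGC, TTTCGCGC or TTTGCCGC on either strand) were present for 42.9% of the G1/S members, 4.55% of the G2/M members and 4.4% of the 10108 tested genes with a promoter in the table. The letters of the cell cycle genes homology region (CHR; TTTGAA or TTCGAA on either strand) were found for 14.3% of the G1/S members, 77.3% of the G2/M members and 16.4% of the tested genes. CHR together with CCAAT, also on either strand, was found for 14.3%, 72.7% and 6.7%. A match of letters is a description of the sequence and not a measured binding site.

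The promoters that follow are those of the 2 members of each phase with the largest called rise in CKD among promoters that hold the letters of that phase, and they show what these letters look like in place. Each line gives 230 bases, 200 before to 30 after the start, on the strand of the gene. Capitals mark E2F letters in Uhrf1 (chr17:56304113-56304342, plus strand) and Mcm5 (chr8:75109309-75109538, plus strand), and CHR and CCAAT letters, read on either strand, in Top2a (chr11:99024160-99024389, minus strand) and Prc1 (chr7:80294251-80294480, plus strand). In Mcm5 the capitals are 2 overlapping matches. Another RefSeq promoter of Uhrf1 held none of the E2F letters and is not printed. The printed Uhrf1 stretch lies inside the locus listed for the gene.
Uhrf1: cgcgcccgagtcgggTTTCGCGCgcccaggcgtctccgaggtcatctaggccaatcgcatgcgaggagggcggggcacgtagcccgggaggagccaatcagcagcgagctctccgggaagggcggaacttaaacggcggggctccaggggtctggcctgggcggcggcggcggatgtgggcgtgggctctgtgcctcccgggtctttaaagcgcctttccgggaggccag
Mcm5: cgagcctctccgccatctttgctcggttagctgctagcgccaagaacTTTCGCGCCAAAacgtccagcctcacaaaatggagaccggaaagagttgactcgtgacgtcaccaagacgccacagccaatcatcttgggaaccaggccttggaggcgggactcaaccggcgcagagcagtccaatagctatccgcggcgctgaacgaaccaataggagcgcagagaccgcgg
Top2a: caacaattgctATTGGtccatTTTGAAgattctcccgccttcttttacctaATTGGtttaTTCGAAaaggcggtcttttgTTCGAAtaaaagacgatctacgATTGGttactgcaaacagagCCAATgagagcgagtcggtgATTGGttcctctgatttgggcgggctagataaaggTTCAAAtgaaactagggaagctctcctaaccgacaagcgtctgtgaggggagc
Prc1: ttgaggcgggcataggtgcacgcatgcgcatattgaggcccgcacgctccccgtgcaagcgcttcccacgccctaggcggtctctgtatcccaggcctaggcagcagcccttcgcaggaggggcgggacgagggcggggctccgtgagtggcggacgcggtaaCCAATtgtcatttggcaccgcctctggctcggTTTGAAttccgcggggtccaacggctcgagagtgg

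The kidneys of CKD mice held more of nearly all of these transcripts than those of control mice. In a limma fit over 13148 genes, 40 of the 43 members that entered it were called higher at an adjusted p under 0.05 and 0 lower, beside 54.6% of all genes called higher and 13.3% called lower. By phase, 15 of 17 G1/S and 25 of 26 G2/M members were called higher. The median difference, on the log2(FPKM + 1) scale used for every log2 difference here, was 1.10 over the G1/S and 1.45 over the G2/M members. Over all genes tested it was 0.50, and each member's value has to be read against that shift. The plot of member changes in CKD shows 41 of the 43 members to the right of the all-gene median.

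**Figure D1:**
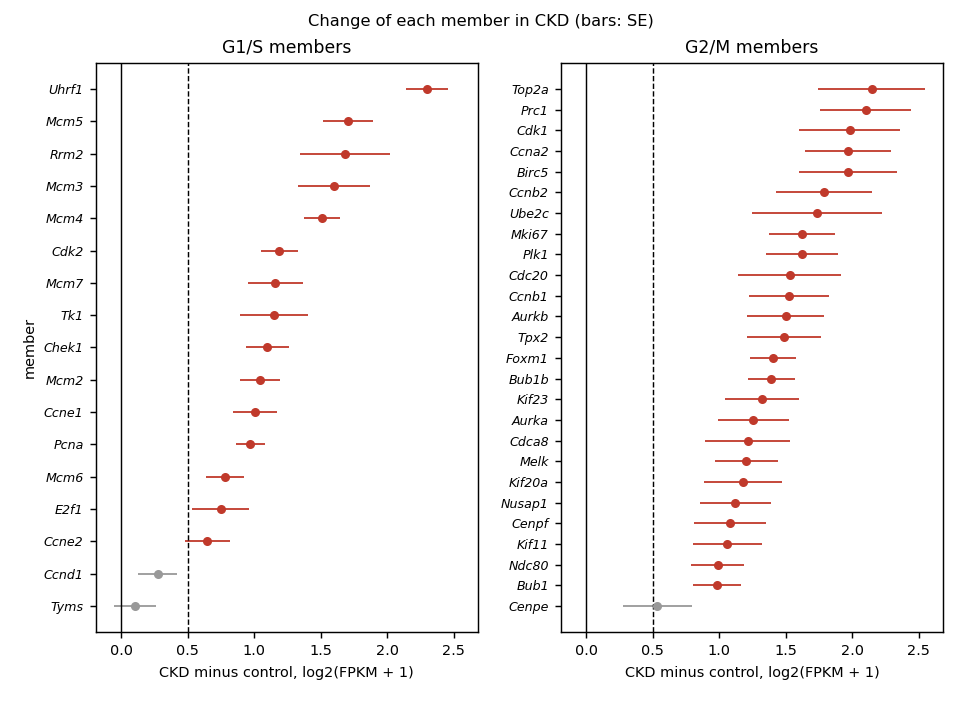
Difference between CKD and control mice for each member that entered the fit, in log2(FPKM + 1), with the SE as a bar (n = 4 mice per group). Red points were called at an adjusted p under 0.05 and grey points (Ccnd1, Tyms and Cenpe) were not; the solid line is 0 and the dashed line the median of all genes, 0.50.

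The filter itself bears on these counts. No control mouse reached 1 FPKM for 21 of the 43 members, 4 G1/S and 17 G2/M. These members entered the fit through adenine-fed mice and had to differ, so their adjusted p-values against control are a description. The G1/S members were Uhrf1, Chek1, Ccne1 and Ccne2. The G2/M members were Prc1, Kif23, Aurkb, Aurka, Nusap1, Tpx2, Plk1, Mki67, Bub1b, Ccnb1, Foxm1, Kif20a, Kif11, Melk, Cenpf, Ndc80 and Bub1. For the 17 members that all 4 control mice expressed at 1 FPKM, 11 of 13 G1/S and 4 of 4 G2/M members were called higher. The share called among all genes with such control values is not given here, so these counts have no background of their own. In a fit without any filter, over 18036 genes, 15 of 17 G1/S and 26 of 27 G2/M members were called higher, beside 45.5% of all genes.

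Scaling moved these counts. Kap, an androgen-regulated gene of the proximal tubule, made up 10.6% to 12.7% of the FPKM total in control mice and 0.188% to 1.70% in adenine-fed mice. After median-of-ratios rescaling, which brought the median of all genes to -0.03, 12 G1/S and 24 G2/M members were called higher and 1 G1/S member (Tyms) lower, beside 27.2% of all genes higher and 31.0% lower. Quantile normalization left 7 G1/S and 9 G2/M members called higher, beside 23.3% of all genes. The G1/S and G2/M medians were 0.60 and 1.14 after rescaling. With quantile normalization they were 0.49 and 0.66, beside -0.03 over all genes. Rescaling ended the calls of Mcm6, Tk1, E2f1 and Cdca8. The members still called after quantile normalization were Pcna, Cdk2, Mcm3, Mcm4, Mcm5, Mcm7 and Uhrf1 among the G1/S genes, and Cdk1, Birc5, Top2a, Ccna2, Prc1, Plk1, Mki67, Bub1b and Foxm1 among the G2/M genes.

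Among the G1/S members, cyclin D1 and the enzyme thymidylate synthase stood outside the general rise. Ccnd1, the cyclin that couples growth signals to the cycle, had the highest level of any member per length and was at 54.9, 47.9, 49 and 40.7 FPKM in control, 60.5, 46.7, 67.4 and 59.8 in CKD and 44.5, 52.2, 61.4 and 47.8 in CKD+Fe mice. The groups overlapped, with a difference of 0.27 between CKD and control (SE 0.15, limma adjusted p = 0.109). Tyms, which makes the thymidine nucleotide, was at 17.4, 17, 19.3 and 16.5 FPKM in control and 17.5, 19.1, 26.2 and 14.4 FPKM in CKD mice. A single CKD mouse, 110310, lay above the control range and another below it, and the difference was 0.10 (SE 0.16, adjusted p = 0.58); after rescaling it was -0.49 and called lower (adjusted p = 0.0276).

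The E-type cyclins, their kinase and their transcription factor were called higher in CKD. Cdk2, the kinase partner of cyclin E, was at 5.17, 5.26, 4.59 and 5 FPKM in control and 12.4, 16.2, 10.1 and 12.8 FPKM in CKD mice, a difference of 1.19 (SE 0.14, adjusted p = 9.95e-06). Every CKD mouse lay above every control mouse. Ccne1 rose from a mean of 0.354 ± 0.0727 to 1.75 ± 0.502 FPKM (SD, n = 4) and Ccne2 from 0.301 ± 0.106 to 1.06 ± 0.36 FPKM. E2f1, which activates S phase genes, rose from 2.13 ± 0.201 to 4.32 ± 1.03 FPKM, a difference of 0.75 that was 0.29 and not called after rescaling (adjusted p = 0.271). After quantile normalization the differences of E2f1 and Ccne2 were below 0, at -0.09 and -0.07, and neither was called.

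All 6 subunits of the MCM helicase, which unwinds DNA at the replication fork, rose in CKD. The log2 differences were 1.04 for Mcm2, 1.60 for Mcm3, 1.51 for Mcm4, 1.71 for Mcm5, 0.78 for Mcm6 and 1.16 for Mcm7. Mcm5 had the largest difference of the 6, with 1.93, 2.11, 1.89 and 2.07 FPKM in control mice and 8.88, 9.27, 11.2 and 6.39 FPKM in CKD mice (SE 0.19, adjusted p = 5.84e-06). Mcm4 was at 1.78, 1.47, 2.42 and 1.69 FPKM in control and 7.46, 7.22, 5.95 and 7.63 FPKM in CKD mice (adjusted p = 1.11e-06). For each subunit the lowest CKD mouse was above the highest control mouse. The rise of Mcm6 was no longer called after rescaling (0.21, adjusted p = 0.253), and those of Mcm2 and Mcm6 were not called after quantile normalization (0.27 and 0.24, adjusted p = 0.199 for both). Reads of Mcm7 may be shared with the overlapping genes Cops6 and Ap4m1.

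Of the other genes of DNA synthesis, Pcna, the sliding clamp of the polymerases, went from 19.3, 20.3, 20.3 and 21.6 FPKM in control mice to 40.5, 44, 42.6 and 37 FPKM in CKD mice. Its groups lay far apart and varied little within themselves, and the difference was 0.97 (SE 0.11, adjusted p = 5.92e-06). Rrm2, the regulated subunit of ribonucleotide reductase, rose from 2.72 ± 0.14 to 11.3 ± 3.44 FPKM and Tk1, a thymidine kinase, from 5.67 ± 1.74 to 13.8 ± 3.46 FPKM. The call of Tk1 was lost after rescaling (0.60, adjusted p = 0.0725) and after quantile normalization (0.49, adjusted p = 0.168). The checkpoint kinase gene Chek1 was at 0.21 to 0.685 FPKM in control and 1.44 to 2.58 FPKM in CKD mice, a difference of 1.10 (adjusted p = 6.6e-05). With quantile normalization Rrm2 and Chek1 were not called either (adjusted p = 0.0686 and 0.0718). Chek1 entered the fit with no control mouse at 1 FPKM and had to differ.

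Uhrf1 had the largest difference of the 43 members. It encodes a protein that brings the maintenance DNA methyltransferase to newly copied DNA, and the files place it at chr17:56303320-56323486 (GRCm38). Its values were 0.447, 0.587, 0.663 and 0.63 FPKM in control, 6.21, 6.71, 7.63 and 6.61 in CKD and 4.58, 6.55, 3.8 and 3.52 in CKD+Fe mice. The lowest adenine-fed mouse was several times above the highest control mouse, and the difference between CKD and control was 2.30 (SE 0.16, adjusted p = 1.44e-07). Rescaling gave 1.95 and quantile normalization 1.5, and both were called. No control mouse reached 1 FPKM, so Uhrf1 entered the fit through adenine-fed mice and had to differ. Its rank and its adjusted p are therefore a description.

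The G2/M members were at lower levels than the G1/S members in control mice and differed by larger factors in CKD. The mean of the control mice, taken per gene, had a median of 3.03 FPKM over the G1/S members and 0.531 FPKM over the G2/M members, of which the most abundant was Cdk1 at 2.34 FPKM. The ratio of the CKD mean to the control mean had a median of 2.57 over the 17 G1/S members (range 1.10 to 11.7) and 6.44 over the 27 G2/M members (2.04 to 10.4). The mean of the CKD mice was at least 3 times that of the control mice for 26 of 27 G2/M and 8 of 17 G1/S members. The same held for 17.8% of all genes tested. No control mouse reached 1 FPKM for 18 of these 27 G2/M and 4 of these 17 G1/S members, so these counts are a description. Over the members that all 4 control mice expressed at 1 FPKM, the ratio was 1.1 to 4.47 for 13 G1/S and 3.77 to 6.14 for 4 G2/M members. A pseudocount of 1 compresses differences of genes below 1 FPKM, so the log2 differences of the G2/M members understate these ratios. The ratios were taken before rescaling and hold the shift shared by all genes. Rescaling lowered the median log2 difference from 1.10 to 0.60 over the G1/S and from 1.45 to 1.14 over the G2/M members.

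Cdk1, the kinase that starts mitosis, was at 2.16, 1.89, 2.32 and 3.02 FPKM in control mice and 9.02, 11.4, 19.9 and 10.3 FPKM in CKD mice. All CKD mice lay above all control mice, mouse 110310 highest, and the difference was 1.98 (SE 0.38, adjusted p = 0.000451). Its cyclins moved with it, by 1.97 for Ccna2, 1.53 for Ccnb1 and 1.79 for Ccnb2. Foxm1, the transcription factor of the mitotic gene wave, was at 0.305, 0.289, 0.286 and 0.454 FPKM in control and 2.5, 1.9, 3.57 and 2.35 FPKM in CKD mice, a difference of 1.41 (adjusted p = 1.37e-05). Foxm1 and Ccnb1 entered the fit with no control mouse at 1 FPKM and had to differ. Ccna2 shares its locus with Exosc9.

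The mitotic kinases and the proteins they work with were also called higher. Plk1 rose by 1.62, Aurka by 1.26 and Aurkb by 1.5. Birc5 and Cdca8, which form the chromosomal passenger complex with Aurora B, rose by 1.97 and 1.21. Cdca8 was not called after rescaling (0.81, adjusted p = 0.0507), and Cdca8, Aurka and Aurkb were not called after quantile normalization (adjusted p = 0.41, 0.232 and 0.0818). Melk, a kinase of dividing cells with no settled single role, rose by 1.20, from 0.0774 to 0.286 FPKM in control to 1.28 to 2.25 FPKM in CKD mice.

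Kinetochore and checkpoint genes were among the least abundant members. Bub1 and Bub1b, kinases of the spindle checkpoint, rose by 0.98 and 1.39, and Ndc80, which links kinetochores to microtubules, by 0.99. Cenpf rose by 1.08, from 0.0748, 0.251, 0.826 and 0.0998 FPKM in control mice, where mouse 042301 was well above the other three, to 1.19, 1.99, 1.84 and 1.88 FPKM in CKD mice. Cenpe, a kinetochore motor, was the 1 G2/M member in the fit that was not called. Its values were 0.725, 1.22, 0.896 and 0.763 FPKM in control and 2.1, 1.35, 2.97 and 0.944 FPKM in CKD mice, which overlapped, with a difference of 0.53 (SE 0.26, adjusted p = 0.0827). Ttk, another checkpoint kinase, was under the filter at 0.0964, 0.092, 0.0626 and 0.11 FPKM in control and 0.604, 0.906, 0.801 and 0.648 FPKM in CKD mice. The groups did not overlap (p = 0.0286 in a two-sided exact permutation test, which can go no lower with 70 arrangements of 4 against 4 mice).

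Genes of the spindle and of mitotic exit rose as well. Prc1, which bundles the central spindle, was at 0.534, 0.488, 0.708 and 0.868 FPKM in control mice and 4.55, 5.24, 9.61 and 5.69 FPKM in CKD mice, a difference of 2.1 (SE 0.34, adjusted p = 0.000141). The kinesins Kif11, Kif20a and Kif23 rose by 1.06, 1.18 and 1.32, and the spindle assembly genes Tpx2 and Nusap1 by 1.49 and 1.12. Prc1, these kinesins, Tpx2 and Nusap1 entered the fit with no control mouse at 1 FPKM and had to differ. Cdc20 and Ube2c, which activate and serve the anaphase-promoting complex, rose by 1.53 and 1.74. For Nusap1, Ube2c, Cdc20 and Kif20a the locus overlaps another gene (Oip5, Tnnc2, Elovl1 and Cdc23), and whether strand was used in counting is not given in the sources used here.

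Top2a, the topoisomerase that untangles sister chromatids, had the largest log2(FPKM + 1) difference among the G2/M members, a rank that depended on the processing. After rescaling Prc1 was above it (1.75 against 1.73). With a pseudocount of 0.1 Prc1 (3.06), Mki67 (2.91), Ccnb1 (2.87) and Plk1 (2.87) were above Top2a (2.82). At chr11:98992942-99024189 Top2a was listed with 1.45, 0.621, 1.01 and 1.7 FPKM in control and 6.64, 8.84, 13.4 and 6.67 FPKM in CKD mice, a difference of 2.15 (SE 0.40, adjusted p = 0.000391). Mki67, which encodes the proliferation antigen Ki-67, was at 0.258, 0.248, 0.31 and 0.561 FPKM in control and 2.89, 2.87, 3.75 and 3.03 FPKM in CKD mice (1.62, SE 0.25, adjusted p = 8.3e-05). For both genes every CKD mouse lay above every control mouse, as it did for 15 of 17 G1/S members, 26 of 27 G2/M members and 44.6% of all genes tested. These counts include Ttk, which was outside the fit. They also include 21 members, Mki67 among them, that entered it with no control mouse at 1 FPKM and had to differ, so they are a description.

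**Figure D2:**
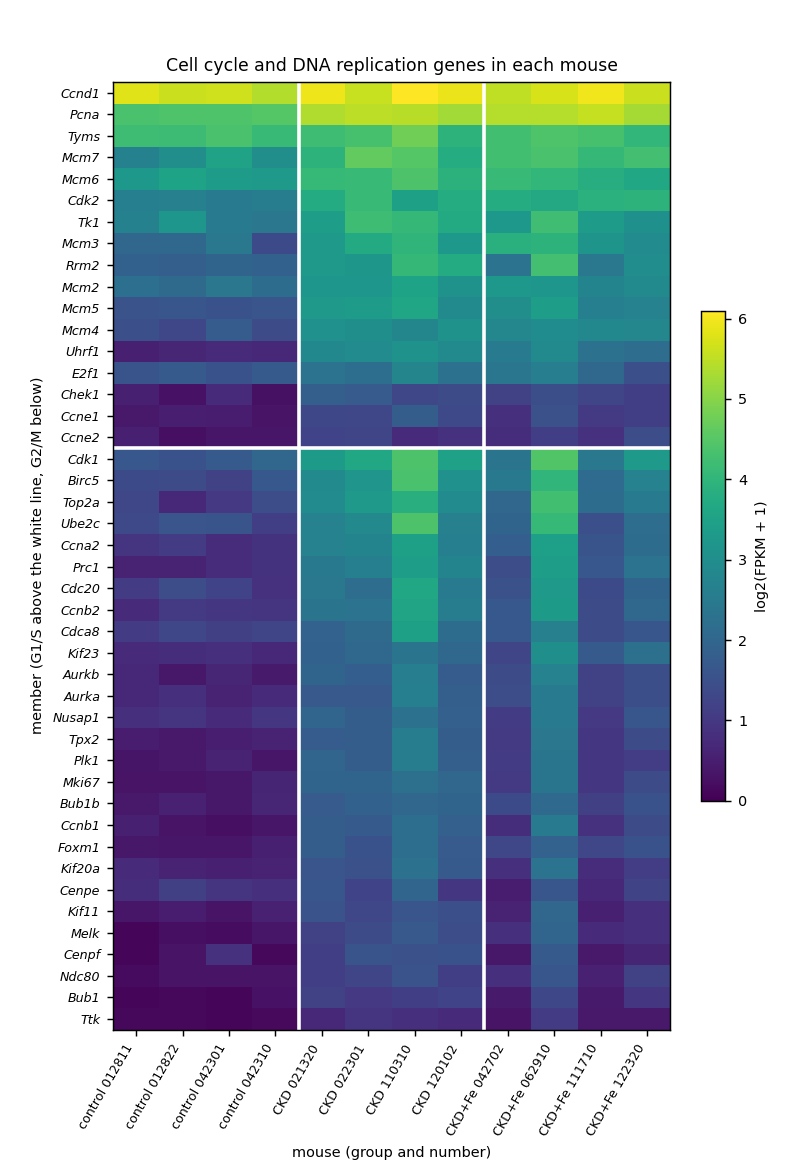
Level of each of the 44 matched members in each of the 12 mice as log2(FPKM + 1), G1/S members above and G2/M members below the white line, each ordered by mean level. The control columns are darkest in the lower block, and CKD mouse 110310 and CKD+Fe mouse 062910 are the brightest columns there.

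A level per mouse was taken as the mean of log2(FPKM + 1) over the members of each phase, and no test was run on it because the members were chosen with earlier results known. The G1/S level was 2.19 to 2.37 in control mice, 3.25 to 3.56 in CKD mice and 3.03 to 3.48 in CKD+Fe mice. The G2/M level was 0.66, 0.72, 0.71 and 0.75 in the control mice, and 1.94, 1.98, 2.62 and 1.99 in CKD mice 021320, 022301, 110310 and 120102. In CKD+Fe mice 042702, 062910, 111710 and 122320 it was 1.24, 2.63, 1.17 and 1.60. The control mice were therefore almost alike and the CKD+Fe mice were spread widely, with 062910 at the level of the highest CKD mouse and the other three below every CKD mouse.

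**Figure D3:**
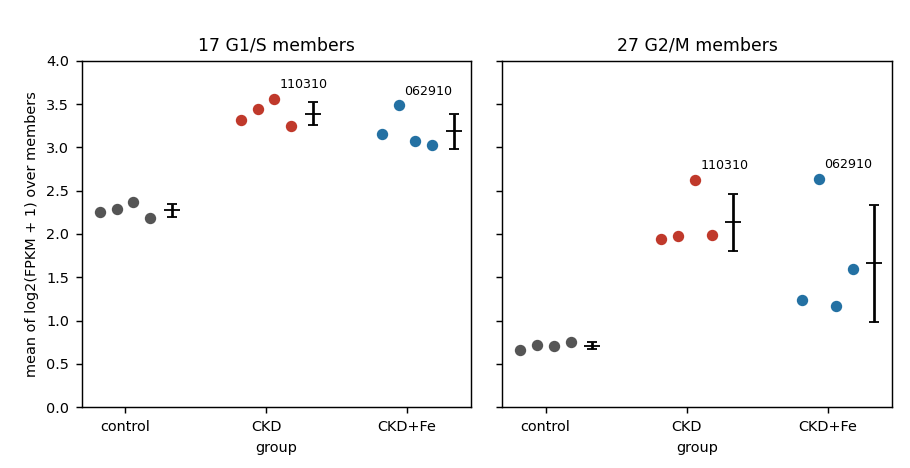
Mean of log2(FPKM + 1) over the 17 G1/S members (left) and the 27 G2/M members (right) in each mouse; the black marks are the mean and SD of 4 mice. In the right panel 3 CKD+Fe mice lie between the control and the CKD mice, while 062910, at 2.63, lies beside CKD mouse 110310, at 2.62.

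Within a mouse the G2/M level was below the G1/S level by 1.43 to 1.66 in control mice, by 0.93 to 1.46 in CKD mice and by 0.85 to 1.91 in CKD+Fe mice. The mean of this gap moved by 0.30 from control to CKD when the members were averaged, and by 0.05 when their median was taken, so the size of the shift rested on the summary used. With a pseudocount of 0.1 it was 0.88, after rescaling 0.46 and without CKD mouse 110310 0.20. From control to CKD+Fe the gap moved by 0.04, and by -0.12 as a median over members and -0.19 without mouse 062910. With a pseudocount of 0.1 this move was 0.41 and after rescaling 0.21.

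The comparison of CKD+Fe with CKD mice asks what iron did to kidneys on the adenine diet, and here no member was called in either direction by limma. Of all genes tested, 0.00761% were called higher and 0.0% lower. Among the 43 members 39 had a difference below 0 (38 after rescaling or quantile normalization), against 50.1% of all genes, with medians of -0.23 over the G1/S and -0.53 over the G2/M members and -0.001 over all genes. At an unadjusted p under 0.05, 1 G1/S and 3 G2/M members were lower and 0 higher, beside 2.73% of all genes lower and 3.28% higher. The lowest adjusted p of any member was 0.526, for Uhrf1.

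The plainest case was Mki67. In CKD+Fe mice 042702, 062910, 111710 and 122320 it was at 1.03, 4.17, 0.96 and 1.64 FPKM, beside 2.87 to 3.75 FPKM in the CKD mice. Mouse 062910 was above every CKD mouse and the others below every one, and the limma difference was -0.60 (SE 0.25, adjusted p = 0.786). Cenpf was at 0.312, 2.32, 0.331 and 0.554 FPKM in the same mice and showed the same order, with a difference of -0.64 (limma unadjusted p = 0.0333). Plk1 was at 1.09, 4.15, 0.941 and 1.17 FPKM, where 062910 lay below only CKD mouse 110310 and the others below all CKD mice (-0.68, limma unadjusted p = 0.0275).

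The same mouse stood out across the G2/M members. Mouse 062910 was the highest CKD+Fe mouse for 27 of 27 G2/M members and for 11 of 17 G1/S members, against 15.6% of all genes tested. It was above every CKD mouse for 16 of 27 G2/M and 2 of 17 G1/S members, against 13.1% of all genes. Among the CKD mice, 110310 was highest for 24 of 27 G2/M and 10 of 17 G1/S members, against 32.6% of all genes. The remaining 3 CKD+Fe mice were all below every CKD mouse for 23 of 27 G2/M and 5 of 17 G1/S members, against 2.4% of all genes. This order of mice was seen in the data and then counted, so the counts describe these libraries.

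Without mouse 062910, a choice made after its values were seen, the median difference between CKD+Fe and CKD was -0.86 over the G2/M and -0.27 over the G1/S members and 0.02 over all genes. At an unadjusted p under 0.05, 25 of 26 G2/M and 5 of 17 G1/S members were then lower, beside 2.77% of all genes. Mouse 062910 was the highest CKD+Fe mouse for every G2/M member, so leaving it out had to lower their differences. These counts are therefore a description. No member was called, beside 0.00761% of all genes in either direction, and the lowest adjusted p was 0.0753, for Mki67 and Kif11. Leaving out CKD mouse 110310 alone gave -0.33 over the G2/M and -0.14 over the G1/S members. Leaving out mice 042301, 110310 and 042702, also chosen after the data were seen, gave medians of -0.16 over the G2/M and -0.19 over the G1/S members. The size of the G2/M difference therefore depended on which mice were kept.

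**Figure D4:**
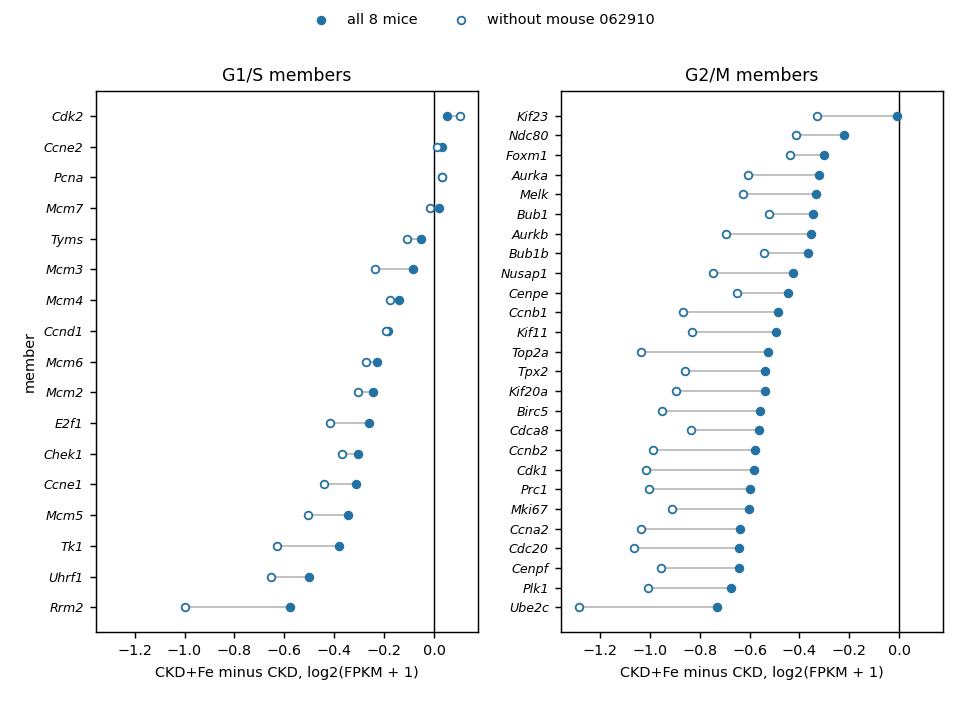
Difference between CKD+Fe and CKD mice for each member in the fit, in log2(FPKM + 1), with all 8 mice (filled) and without CKD+Fe mouse 062910 (open). All 26 G2/M members move to lower values without this mouse, from a median of -0.53 to -0.86. They had to, because it was the highest CKD+Fe mouse for each of them. None is called at an adjusted p under 0.05 in either fit.

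The G1/S members varied less between CKD+Fe mice and included the few with a difference above 0. Pcna was at 41.9, 41.5, 46.4 and 37.9 FPKM in CKD+Fe mice (0.03 against CKD, SE 0.11) and Cdk2 at 12.8, 11.8, 13.9 and 14.4 FPKM (0.05, SE 0.14). Mcm7 and Ccne2 differed by 0.02 and 0.03. Rrm2 had the lowest difference of the G1/S members, -0.58 (SE 0.34, adjusted p = 0.905). It was at 4.01, 18.2, 4.42 and 6.9 FPKM in CKD+Fe mice, beside 2.57 to 2.9 FPKM in control and 8.36 to 15.7 FPKM in CKD mice. Again 062910 lay above every CKD mouse, and the others lay between the control and the CKD range.

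Tubule markers were measured in the same comparison. Of 10 injured tubule markers 10 had a difference between CKD+Fe and CKD below 0, with a median of -0.60, and of 10 proximal tubule markers 10 had one above 0, with a median of 0.43, where 50.1% of all genes were below 0. Without mouse 062910, 8 of the 10 proximal tubule markers were above 0. None of these 20 was called by limma (lowest adjusted p 0.458 for injured and 0.277 for proximal tubule markers). At a limma unadjusted p under 0.05, 6 injured tubule markers were lower and 2 proximal tubule markers higher, beside 2.73% of all genes lower and 3.28% higher. The part of these markers in the cell cycle values was not tested. Without mice 042301, 110310 and 042702, chosen after the data were seen, 2 of 10 proximal tubule markers were called higher. The share of all genes called in that fit is not given here, so this count has no background to be read against.

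Against control mice, the CKD+Fe mice kept higher levels of most members. This comparison shares its control mice with the first one and its CKD+Fe mice with the second. Called higher were 14 of 17 G1/S and 19 of 26 G2/M members, beside 54.4% of all genes, and called lower 0, beside 11.0%. The medians were 0.80 and 0.98, against 0.50 over all genes. After rescaling 10 G1/S and 14 G2/M members were called higher and 2 G1/S members lower (Ccnd1 and Tyms), beside 26.1% of all genes higher and 29.3% lower. Quantile normalization left 6 G1/S members and no G2/M member called higher, beside 19.8% of all genes, and 20 of 26 G2/M members with a difference above 0. Every CKD+Fe mouse lay above every control mouse for 13 of 17 G1/S and 22 of 27 G2/M members, beside 50.3% of all genes. Of the members in the fit, 4 G1/S and 17 G2/M had no control mouse at 1 FPKM, so these counts are a description. Without mouse 062910, 13 G1/S and 18 G2/M members were called higher, beside 53.2% of all genes. Without this mouse and after rescaling, 7 and 8 were called higher and 2 G1/S members lower, beside 24.1% of all genes higher and 27.5% lower.

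Members called in CKD but not in CKD+Fe mice against control were E2f1 among the G1/S genes and Ube2c, Cdc20, Cdca8, Kif20a, Kif11 and Cenpf among the G2/M genes. For Ube2c the CKD+Fe values were 2.9, 16, 1.8 and 3.53 FPKM, beside 1.2 to 2.07 FPKM in control mice, so mouse 111710 lay inside the control range and 062910 above 3 of the 4 CKD mice (log2 difference 1.0, SE 0.49, adjusted p = 0.0839). Kif11 was at 0.492, 3.01, 0.458 and 0.789 FPKM, beside 0.241 to 0.477 FPKM in control mice (difference 0.57, adjusted p = 0.0684). A call in one comparison and none in the other does not show a difference between them, and the direct comparison of CKD+Fe with CKD called none of them.

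Other genes of the same pathways, listed without regard to their own values but with earlier results of these data known, were mostly called higher as well. Of 38 other G1/S genes in the fit 33 were called higher in CKD and 2 lower, beside 54.6% and 13.3% of all genes, with a median of 0.98 against 0.50 over all genes. After rescaling 23 were called higher and 3 lower, beside 27.2% and 31.0% of all genes. The largest rises were those of Chaf1b (1.82) and Lig1 (1.73), a chromatin assembly factor and the ligase of the lagging strand, and of Cdca7 (1.74), an E2F and Myc target. Mcm10, a replication initiation factor, was among those called lower and had a difference of -0.78 (adjusted p = 0.0116), with 1 CKD mouse inside the control range.

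Of 36 other G2/M genes in the fit 31 were called higher and 1 lower, beside the same 54.6% and 13.3% of all genes, with a median of 1.24. After rescaling the counts were 28 and 3, beside 27.2% and 31.0%. The largest rises were those of the centromere genes Hjurp (1.96) and Cenpa (1.70) and of the phosphatase gene Cdc25b (1.86). Kif20b, a kinesin, went the other way, from 5.67, 4.6, 4.34 and 6.83 FPKM in control mice to 1.23, 0.978, 1.01 and 1.05 FPKM in CKD mice (-1.61, adjusted p = 1.89e-06), with no overlap. Between CKD+Fe and CKD no gene of either list was called by limma. At a limma unadjusted p under 0.05, 4 of 38 other G1/S and 3 of 36 other G2/M genes were lower, beside 2.73% of all genes. Mouse 062910 was the highest CKD+Fe mouse for 43 of 46 other G2/M and 23 of 41 other G1/S genes, against 15.6% of all genes. The promoters of these lists held E2F letters for 41.2% of 34 G1/S and 7.89% of 38 G2/M genes, and CHR letters for 26.5% and 73.7%.

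Inhibitors of the cycle were measured beside its drivers. Of 16 genes that restrain the cycle 12 were called higher in CKD and 0 lower, beside 54.6% and 13.3% of all genes. After rescaling 4 were called higher and 2 lower, beside 27.2% and 31.0% of all genes, so the count of higher genes was then at the share of all genes. The 4 were Cdkn1a, Cdkn2a, Cdkn2b and Btg2 and the 2 were E2f5 and Ccng1. Cdkn1a, which encodes the p53 target p21, was at 2.35, 2.4, 12.6 and 3.98 FPKM in control mice, 26.6, 39.9, 53.8 and 51.3 in CKD mice and 39.8, 33.6, 20.4 and 35.3 in CKD+Fe mice. All CKD mice exceeded all control mice, of which 042301 was the highest, and the difference was 3.01 (SE 0.39, adjusted p = 1.93e-05). Cdkn2a, the locus of p16 and p19Arf, was listed at 0 in all 4 control mice and at 1.43, 1.55, 1.58 and 1.58 FPKM in CKD mice (adjusted p = 4.85e-06). In CKD+Fe mice it was at 1.09, 0.633, 0.386 and 1.13 FPKM, every mouse below every CKD mouse, but the difference of -0.51 was not called (adjusted p = 0.456). Cdkn2a entered the fit through adenine-fed mice alone, so it had to differ from control and its call there is a description. Btg2 rose by 2.18 and Cdkn2b by 1.64. The other 8 called genes were Cdkn1b, Cdkn2c, Cdkn2d, Rb1, Rbl1, E2f4, Gadd45a and Trp53, with differences of 0.42 to 0.92, none of them called after rescaling.

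Markers of several cell types moved with the CKD groups, and their counts stand beside 54.6% of all genes called higher and 13.3% called lower. Of 10 proximal tubule markers 9 were called lower in CKD, Slc34a1 by -2.54, and their summed FPKM was 3260 to 5110 in control, 458 to 919 in CKD and 595 to 1354 in CKD+Fe mice. Of 10 injured tubule markers 10 were called higher, Havcr1 by 6.05, with sums of 675 to 993, 12187 to 21796 and 8914 to 15976 FPKM. Macrophage markers (10 of 10 higher, Adgre1 by 3.12) summed to 96.4 to 169, 840 to 1818 and 926 to 1817 FPKM. Myofibroblast markers (10 of 10 higher, Col1a1 by 2.78) summed to 124 to 159, 609 to 1004 and 478 to 664 FPKM.

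The remaining marker lists had sums that overlapped between control and CKD mice. T and B cell markers were called higher for 6 of 7 in the fit, with sums of 4.5 to 10 FPKM in control, 7.57 to 31.8 in CKD and 20.7 to 36.3 in CKD+Fe mice. Cd3e was not among the 6, and 2 of 7 were called after rescaling, near the 27.2% of all genes. Endothelial markers were called lower for 1 of 8 and, after rescaling, for 6 of 8, beside 13.3% and 31.0% of all genes. Erythroid markers were called lower for 0 of 6, and papilla and urothelium markers were called higher for 1 of 8. The sums of the endothelial, erythroid and papilla and urothelium lists overlapped between all 3 groups. Pecam1 and Upk1b were not called, Alas2 was under the filter, and none of these defining genes (Slc34a1, Havcr1, Adgre1, Col1a1, Cd3e, Pecam1, Upk1b and Alas2) was at 0 in any mouse. No marker of any list was called between CKD+Fe and CKD in the fit of all 12 mice. Which of these cell types carried the cell cycle transcripts was not tested.

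Beside the high G2/M levels of 2 mice stood the following marker values. CKD+Fe mouse 062910 had the highest injured tubule sum (15976 FPKM), proximal tubule sum (1354 FPKM), myofibroblast sum (664 FPKM) and Kap share (1.70%) of its group and the lowest macrophage sum (926 FPKM). CKD mouse 110310 had the highest myofibroblast sum (1004 FPKM), T and B cell sum (31.8 FPKM) and Kap share (1.25%) of its group. Its endothelial sum was also the highest (315 FPKM, beside 166 to 230 FPKM in the other CKD mice). So was its erythroid sum (131 FPKM, beside 31.3 to 130 FPKM). Mice 062910 and 110310 also had the highest FPKM total of their group (572074 and 603556) and the fewest genes at 1 FPKM (12910 and 12750). The part of these library and marker values in the G2/M values was not tested.

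The FPKM totals were 503438 to 707843 per mouse, with 11470 to 13061 genes at 1 FPKM. How many reads each library held is not known from FPKM values, and low members such as Bub1 and Ttk therefore carry no counting interval. Replicates are separate mice, and the number of 4 per group limits the precision of every value above.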

How the data were processed

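Gene expression was measured by RNA-seq in 12 mouse kidneys, 4 per group. According to the labels and the study's methods, the authors made stranded mRNA libraries with single-end reads, and the submitters' processing notes name STAR 2.5.2, Cufflinks 2.1.1, bcl2fastq 2.19 and GRCm38. The deposited values are FPKM per gene, scaled to transcript length and library size by the authors. FPKM are not counts, so the count model of the study (DESeq2) was not run.

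All 12 mice entered 1 limma fit (limma 3.58.1 run under R 4.3.3) of log2(FPKM + 1) with a variance trend. Genes needed 1 FPKM or more in 4 or more mice, which left 13148, and Benjamini-Hochberg adjusted p-values under 0.05 (two-sided) were called. The 30 values that the quantification marked as failed, in 17 genes, were treated as missing. Of 3 listed symbols on 2 entries each (none a member) the entry with the higher mean was used. No sample column was left unused. Ttk, below the filter, had an exact permutation test. The fit was tested on simulated data.

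Members, phase assignment and lists were chosen with earlier results of these data known. All members could be named, as could the 3 largest rises and falls of the other G1/S and G2/M lists, the genes that restrain the cycle and 1 defining gene per marker list. Alternatives were a pseudocount of 0.1, no filter or one at a mean of 5 FPKM, quantile normalization, rescaling of the mice by median-of-ratios factors, fits of only the groups compared, array quality weights, no variance trend, an adjusted p threshold of 0.5 and leaving out each mouse. Labels name no batch. Gins2 and, of the other lists, Cdt1 were not analysed here. One result of the other G1/S list is not reported here.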

Additional observations from a re-analysis of the deposited data

Results flagged for a closer look

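Among 132 groups of 4 mice (44 members in 3 groups), 13 held a mouse far from the other 3 by Dixon's test, which chance alone does in about 1 in 20 groups, and the members share their mice. CKD mouse 110310 was the high one for 6 members. It was at 20.1 FPKM for Ube2c, 10.1 for Ccna2, 10.0 for Cdca8, 5.21 for Aurka, 5.03 for Tpx2 and 2.5 for Ccne1. CKD+Fe mouse 062910 was the high one for 3 G2/M members, at 4.15 FPKM for Plk1, 2.97 for Melk and 1.11 for Ttk, and it was at 6.81 FPKM for Mcm4. Both mice had the highest G2/M level of their group. Control mouse 042310 was high for Foxm1, at 0.454 FPKM. The lowest CKD mouse for Cenpf was 021320, at 1.19 FPKM, and the lowest control mouse for Ndc80 was 012811, at 0.132 FPKM. No explanation of these values was tested.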

How the results depend on the processing

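No paired analysis was possible because the groups share no replicate numbers. No member was called between CKD+Fe and CKD mice under any alternative. Of 962 log2 differences of single members under the alternatives in each comparison, 919 (CKD against control), 935 (CKD+Fe against CKD) and 849 (CKD+Fe against control) kept their direction and their side of the threshold. Where a value turned its direction or a count moved, the cause was not tested. Alternatives without several mice, and those without mouse 062910 after rescaling, were chosen after seeing the data. Depth limits the members below 1 FPKM.

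Members called higher in CKD against control (40) numbered 14 of 16 tested with a mean of 5 FPKM as the filter and 16 after quantile normalization, of which 4 and 9 were G2/M and, after quantile normalization, 7 G1/S. Those called lower numbered 1, a G1/S member, after rescaling with or without mouse 062910. In CKD+Fe against control (33 higher, 0 lower), members called higher numbered 13 with the filter at 5 FPKM (3 G2/M), 6 after quantile normalization (6 G1/S and 0 G2/M) and 15 without 062910 after rescaling (7 and 8), and 2 were lower after rescaling with or without that mouse. Other G1/S genes in CKD numbered 14 higher and 1 lower with the filter at 5 FPKM. After quantile normalization 12 of 38 were higher and 4 lower, beside 23.3% of all genes higher. Between CKD+Fe and CKD 1 was lower with array quality weights and 1 at an adjusted p under 0.5. Other G2/M genes in CKD numbered 6 higher and 0 lower with the filter at 5 FPKM and 7 of 36 higher after quantile normalization, beside the same 23.3%. They numbered 3 lower after rescaling with or without 062910 and 2 lower at the 0.5 threshold. In CKD+Fe against CKD 1 was lower without 062910 and 110310. How many genes of either list entered with the filter at 5 FPKM is not given here, so those counts cannot be read as shares. Genes that restrain the cycle numbered 4 higher and 2 lower after rescaling with or without 062910. After quantile normalization 6 of 16 were higher, beside 23.3% of all genes, and 1 was lower. They numbered 2 lower at the 0.5 threshold and 0 to 1 lower when leaving out each mouse (1 without CKD mouse 021320). In CKD+Fe against CKD 1 was lower at the 0.5 threshold.

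The level over the G1/S members (CKD minus control 1.12, CKD+Fe minus control 0.91) was 1.48 and 1.23 with a pseudocount of 0.1, 0.65 and 0.46 after rescaling and 1.29 and 1.08 as a median over members. The G2/M level (1.42 and 0.95) was 2.35 and 1.64 with a pseudocount of 0.1, and 1.11 in CKD after rescaling. The G2/M minus G1/S gap (0.30 and 0.04) was 0.88 and 0.41 with a pseudocount of 0.1, 0.46 and 0.21 after rescaling, 0.050 and -0.12 as a median, 0.20 in CKD without 110310 and -0.19 in CKD+Fe without 062910, the leaving out of a mouse being chosen here after seeing the data.

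Log2 differences of single members turned as follows. With array quality weights Tyms was -0.017 in CKD against control and 0.072 in CKD+Fe against CKD, where Kif23 was 0.092. After rescaling Ccnd1 was -0.34 and -0.51 and Tyms -0.49 and -0.53 in CKD and CKD+Fe against control, Mcm6 -0.0088 and Cenpe -0.20 in CKD+Fe against control, and Kif23 0.0091 in CKD+Fe against CKD. After quantile normalization, in CKD and CKD+Fe against control, Tyms was -0.31 and -0.36, E2f1 -0.089 and -0.33, Ccne2 -0.066 and -0.042 and Cenpe -0.25 and -0.66. In CKD+Fe against control alone, Ccnd1 was -0.0034, Mcm6 -0.0081, Ccne1 -0.041, Cdca8 -0.15, Nusap1 -0.077, Kif20a -0.093, Kif11 -0.14 and Cenpf -0.20, and Kif23 was 0.025 in CKD+Fe against CKD. Without mice 042301, 110310 and 042702 Tyms was -0.0034 in CKD against control and 0.10 in CKD+Fe against CKD, where Cdk2 was -0.033 and Kif23 0.35. Without 062910 and 110310 Tyms was -0.048 in CKD against control, 0.042 in CKD+Fe against CKD and -0.0056 in CKD+Fe against control, Ccne2 was -0.080 in CKD+Fe against CKD and Cenpe -0.12 in CKD+Fe against control. Without 062910 after rescaling Ccnd1 was -0.34 and -0.55 and Tyms -0.49 and -0.61 against control, Mcm7 -0.035 against CKD, and Mcm6 -0.082, Tk1 -0.039, E2f1 -0.13, Cdca8 -0.013, Cenpe -0.41 and Cenpf -0.026 in CKD+Fe against control. Leaving out each mouse, the differences between CKD+Fe and CKD ran from -0.092 to 0.12 for Ccne2, -0.047 to 0.16 for Cdk2, -0.33 to 0.26 for Kif23, -0.24 to 0.095 for Mcm3, -0.13 to 0.16 for Mcm7, -0.018 to 0.076 for Pcna and -0.18 to 0.10 for Tyms. Tyms ran from -0.048 to 0.23 in CKD and from -0.0056 to 0.12 in CKD+Fe against control, where Cenpe ran from -0.12 to 0.27.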
